A study of Mus musculus with 92 samples.

Results

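Transcript levels of 6 genes, Hoxb8, Hoxb4, Hoxa7, Hoxa9, Hoxa10 and Meis1, are described here across mouse bone marrow cells, ER-Hoxb8 cells and brain macrophages. The genes were taken by their symbols, and all 6 were found among the 29956 named genes of the expression table. The study made conditionally immortalized myeloid progenitors with an estrogen-regulated form of Hoxb8, and asked how closely the macrophages grown from them resemble primary cells in culture and after transfer into a brain whose own cells lack Csf1r. Bulk RNA-seq covered 92 libraries. The level of a gene is given as deposited, as log2 CPM (counts scaled to library size), where a count of 0 takes a fixed lowest value.

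BM progenitors (lineage-depleted marrow) and BM monocytes (magnetic selection) came from FVB wild-type mice, with 3 libraries each. BMD macrophages were grown for 7 days from marrow of the same strain (n = 3). ER-Hoxb8 progenitors came from FVB mice that carry Cas9 and were immortalized with a retrovirus carrying HA-tagged ER-Hoxb8 and a drug selection marker, then held in estradiol and GM-CSF. They were sequenced at day 0, and after estradiol withdrawal at day 4 and at day 7 in M-CSF, when they are called ER-Hoxb8 macrophages (n = 3 at each time, from independent lines). Brain cells were BMD microglia-like cells (MLCs, n = 6) and ER-Hoxb8 MLCs (n = 6), sorted after injection of bone marrow or ER-Hoxb8 cells into the brains of Csf1r-/- mice, and microglia of uninjected FVB wild-type mice (n = 9). The ER-Hoxb8 MLC libraries form 2 series, named GFPHox (replicates 1 to 3) and WTHox (replicates 4 to 6). Further lines were made from ER-Hoxb8 cells heterozygous for Cas9. They carried a non-targeting control guide (NTC) or 1 of 2 guides against Adar1, at both stages. Macrophages with NTC or with sgRNA 1, labelled Adar1 KO, were also treated with the JAK inhibitor baricitinib at 0, 0.0006, 0.016, 0.4 or 10 uM. These doses are those of the sample titles, and the treatment protocol lists a much higher value for the third, which is therefore uncertain. As models, ER-Hoxb8 cells are limited by a retroviral transgene that all of them carry and by the few lines they come from, and MLCs by a host brain without Csf1r signalling of its own. In a table of values per gene, reads of the endogenous Hoxb8 gene and of the fusion transgene cannot be told apart.

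HOX genes encode homeodomain transcription factors that lie in clusters and set position along the body axis in the embryo. In blood, genes of the A cluster and a few of the B cluster are active in stem and progenitor cells and are turned down as myeloid cells mature. MEIS1 and PBX proteins belong to the TALE class of homeodomain factors and bind DNA together with HOX proteins, and Hoxa9 with Meis1 is a classic pair of drivers of myeloid leukemia in mice. Forced Hoxb8 activity holds myeloid progenitors in an immature state, and its fusion to the estrogen receptor makes that activity depend on estradiol.

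The libraries were normalized by the authors in 6 separate sets, each with a lowest value of its own, and levels are compared only within a set. Bone marrow cells and ER-Hoxb8 cells of days 0 and 4 share a lowest value of -4.34 (12 libraries). Day 7 macrophages, MLCs and microglia share -3.62 (27 libraries). Estimated depth was 45.4 to 51.5 M reads in BM progenitors, 45.6 to 48.9 M in BM monocytes, 32.6 to 47.7 M in ER-Hoxb8 progenitors and 33.4 to 37.9 M at day 4. It was 21.4 to 35.1 M in BMD macrophages, 27.7 to 34.1 M in ER-Hoxb8 macrophages, 24.5 to 29.5 M in BMD MLCs, 9.44 to 25.8 M in ER-Hoxb8 MLCs and 16.7 to 30.7 M in microglia. Differences were tested with limma on every gene that exceeded 1 CPM in 3 or more libraries of a fit. To be called, a gene needed an adjusted p (Benjamini-Hochberg) under 0.05 and a log2 fold change, or log2FC, no smaller than 2 in either direction. Where a group has no reads at all, the fold is given as a bound against 3 reads over the group, and bounds and intervals cover counting error only. P-values measure the spread between these samples, and for the lines with guides the labels do not say whether the cultures are independent. In these bulk samples, fewer cells of a type and less RNA per cell cannot be told apart.

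Marker genes were checked before the members. The 7 progenitor markers summed to 7056, 14706 and 16845 CPM in the BM progenitor libraries, with Mpo as the most abundant gene. In ER-Hoxb8 progenitors they summed to 362, 34.6 and 4451 CPM in replicates 1 to 3, led by Prtn3, Cd34 and Mpo, and none of the 7 was at a count of 0. The 5 macrophage markers summed to 1924, 5294 and 428 CPM in the same ER-Hoxb8 libraries, led by Cd68 in replicates 1 and 2 and by Emr1 in replicate 3, and to 130.2, 195 and 169 CPM in BM progenitors. By these sums, ER-Hoxb8 progenitor replicates 1 and 2 lie further from the progenitor label than replicate 3. Basophil and mast cell markers summed to 2966 to 4539 CPM in BM progenitors and 3639 to 4949 CPM in BM monocytes, led by Prss34, against 2.92 to 6.50 CPM in ER-Hoxb8 progenitors. Erythroid markers summed to 2580.1 to 3060.5 CPM in BM progenitors, led by Car1 or Hba-a1, and to 1.77 to 3.35 CPM in ER-Hoxb8 progenitors. Monocyte markers summed to 983 to 1285 CPM in BM progenitors, 9912 to 12269 CPM in BM monocytes and 168 to 2552 CPM in ER-Hoxb8 progenitors. Lymphoid markers stood at 96.4 to 527 CPM in BM progenitors (led by Cd79a) and 0.308 to 16.1 CPM in ER-Hoxb8 progenitors (with Cd3e at 0 in each library), and megakaryocyte markers at 144 to 412 CPM and 1.39 to 2.81 CPM. The part of these cell mixtures in the results below was not tested.

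Hoxb8, the gene used for immortalization, was at the lowest value in all 3 BM progenitor and all 3 BM monocyte libraries. In ER-Hoxb8 progenitors it was at -2.08, -1.83 and 0.33 log2 CPM in replicates 1 to 3, or 6.11, 11.1 and 50.4 estimated reads. At day 4 the libraries stood at -0.34, -2.24 and 1.19. Replicate 3 was the highest library at both times, and day 0 and day 4 overlapped, while every ER-Hoxb8 library lay above every marrow library. Summed over the group, the 67.6 reads of ER-Hoxb8 progenitors against 0 in BM progenitors put Hoxb8 at least 25.7-fold higher, a bound that rests mostly on the 50.4 reads of replicate 3 and is 9.95-fold without it. Hoxb8 did not pass the filter on low values in this set. An exact two-sided permutation test gave p = 0.1, the smallest that 3 libraries against 3 allow (adjusted p = 0.5 over 10 such tests). Without the filter limma also tested and called Hoxb8, at a value that depends on the prior count. From day 0 to day 4 the same exact test gave p = 0.7 (adjusted p = 1), and the direction of the mean depended on day 4 replicate 3. This test does not use the replicate numbers, which pair these libraries. Within pairs Hoxb8 was higher at day 4 in replicates 1 and 3 and lower in replicate 2.

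The estrogen receptor gene Esr1, which gives the fusion its ligand-binding part, did not mark the ER-Hoxb8 cells. It stood at 3.54 ± 0.49 log2 CPM (SD, n = 3) in the BM progenitors and at 2.94 ± 0.33 in those with ER-Hoxb8, a log2FC of -0.60 (SE 0.35, adjusted p = 0.235). Whether reads of the transgene are counted under Esr1 was not tested.

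Hoxa9, a driver of progenitor self-renewal, stood at 3.74, 3.28 and 3.33 log2 CPM in BM progenitors and at 0.23, 1.19 and -0.52 in BM monocytes. In ER-Hoxb8 progenitors it was at the lowest value in replicates 1 and 2 and just above it in replicate 3, with an estimated 0.551 read. At day 4 only replicate 1 was above the lowest value, at -3.96. The 3 levels did not overlap: BM progenitors were highest, BM monocytes lay between, and both times of ER-Hoxb8 cells lay near a count of 0. The ratio of mean CPM between BM and ER-Hoxb8 progenitors was 2495, with a 95% counting interval of 239 to 52743, or at least 294 without ER-Hoxb8 progenitor replicate 3. The fitted log2FC was -7.68 (SE 0.54), a value that depends on the prior count at so few reads. It is a description and not a test, as Hoxa9 passed the filter through the marrow libraries alone.

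Hoxa7, the neighbour of Hoxa9 in the A cluster, stood at 3.24, 3.17 and 3.30 in BM progenitors and at 0.85, 2.47 and 0.78 in BM monocytes. ER-Hoxb8 progenitors held 1.60, 1.52 and 0 reads (-3.34, -3.62 and -4.34 log2 CPM), and day 4 cells stood at -3.79, -3.60 and -4.34. Again the 2 marrow groups and the ER-Hoxb8 cells did not overlap, while day 0 and day 4 did. Mean CPM was 347-fold lower in ER-Hoxb8 than in BM progenitors (95% counting interval 130.0 to 1849, and 588-fold without ER-Hoxb8 progenitor replicate 1). The fitted log2FC of -7.01 (SE 0.57) is a description, as Hoxa7 also passed the filter through the marrow libraries alone.

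Hoxa10, which acts with Hoxa9 in early progenitors, was above 0 log2 CPM in a single library of this set. It was at 0.41, -2.03 and -0.73 log2 CPM in BM progenitors (58.2, 10.1 and 25.2 reads), and at -1.12, -4.34 and -4.34 in BM monocytes. All 6 ER-Hoxb8 libraries of days 0 and 4 were at the lowest value. BM progenitors and BM monocytes overlapped, as the highest monocyte library lay above the lowest progenitor library, and no ER-Hoxb8 library reached the BM progenitors. Against ER-Hoxb8 progenitors, Hoxa10 in BM progenitors gives a bound of at least 27.6-fold lower in ER-Hoxb8 cells (exact permutation p = 0.1, the smallest possible, adjusted p = 0.5). The bound is 15.3-fold without BM progenitor replicate 1.

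Meis1, the HOX cofactor of the TALE class, was also low in ER-Hoxb8 cells. BM progenitors stood at 4.45, 4.15 and 3.93 log2 CPM and BM monocytes at 4.21, 3.58 and 1.79. ER-Hoxb8 progenitors stood at -2.67, -2.44 and -3.17, or 3.52, 6.46 and 2.58 reads, and day 4 cells at -2.77, -2.44 and -2.19. The marrow groups overlapped with each other, as did the ER-Hoxb8 groups, and no ER-Hoxb8 library reached any marrow library. Mean CPM was 179-fold lower in ER-Hoxb8 progenitors. The fitted log2FC of -6.93 (SE 0.58) is a description, as Meis1 passed the filter through the marrow libraries alone.

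Hoxb4, a B-cluster gene known for expanding hematopoietic stem cells, did not share the difference. It stood at -1.76, -0.15 and -1.41 in BM progenitors, 0.22, -0.77 and 0.07 in BM monocytes, -0.43, -0.41 and -0.22 in ER-Hoxb8 progenitors and 0.03, 0.21 and -0.83 at day 4. All 4 groups overlapped, and ER-Hoxb8 against BM progenitors was not called (log2FC 0.75, SE 0.56, adjusted p = 0.368). This value was 0.42 without BM progenitor replicate 1 and 1.23 without replicate 2.

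**Figure D1:**
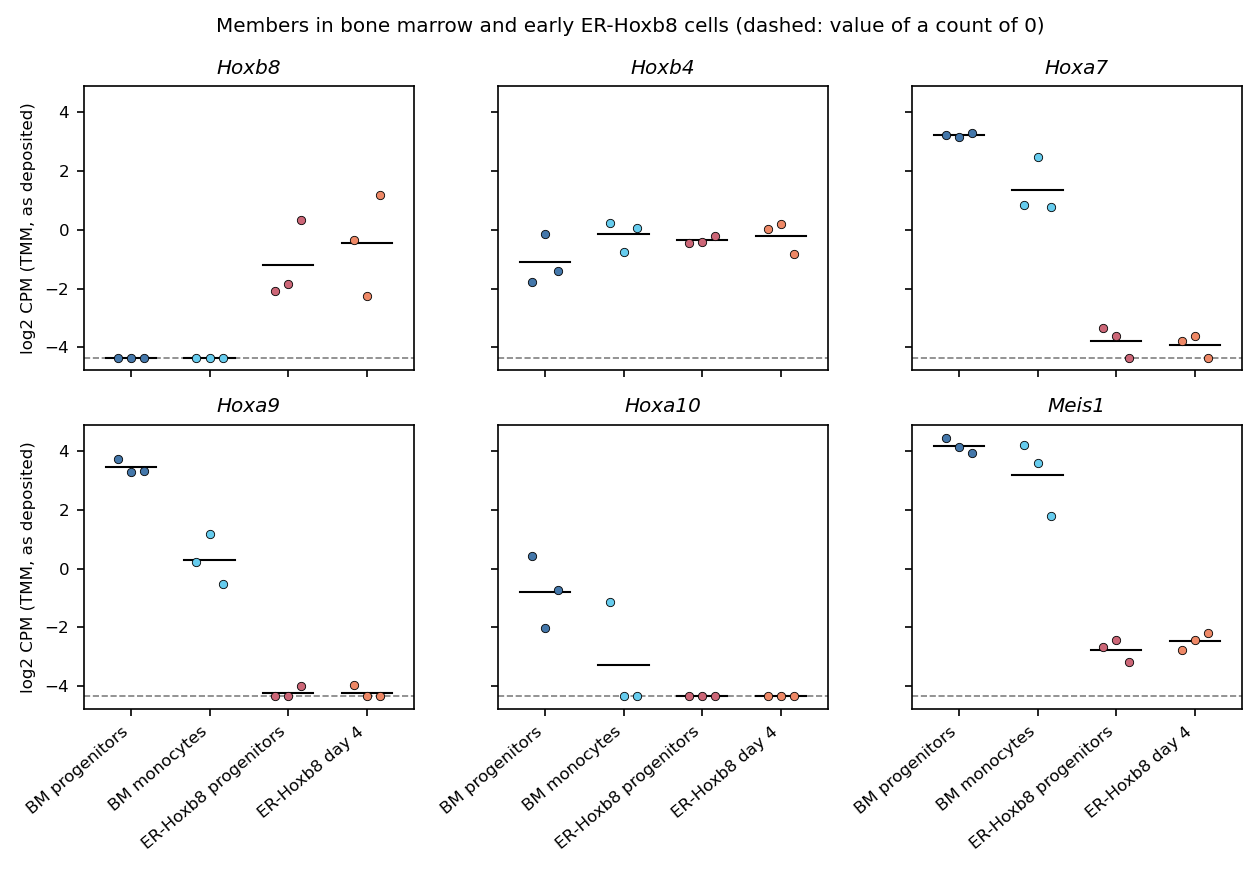
Each panel shows 1 gene in log2 CPM (vertical axis) for every library of BM progenitors, BM monocytes, ER-Hoxb8 progenitors and ER-Hoxb8 day 4 cells, with bars at the mean and a dashed line at the value of a count of 0. Hoxa7, Hoxa9 and Meis1 lie between 3.17 and 4.45 in BM progenitors and at or below -2.19 in all ER-Hoxb8 libraries, and Hoxb8 is above the dashed line only in ER-Hoxb8 cells.

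Of the 6 members, 4 passed the filter in this set (Hoxb4, Hoxa7, Hoxa9 and Meis1). Hoxa7, Hoxa9 and Meis1 passed through the marrow libraries alone, so their fitted values and the count that follows are descriptions. In ER-Hoxb8 against BM progenitors 3 of these 4 were called, all lower, where 15.3% of 12056 genes tested were called. With any single library removed the log2FC stayed between -7.22 and -6.72 for Hoxa7, -7.79 and -7.53 for Hoxa9 and -7.09 and -6.73 for Meis1. Hoxa7 and Hoxa9 lie at or near the lowest value in ER-Hoxb8 cells, where the prior count limits this range. Their ratios of mean CPM moved more. In this comparison 546 genes were called higher and 1297 lower, or 29.6% higher, and 41.3% of the calls were higher after quantile normalization.

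From ER-Hoxb8 day 0 to day 4, the first days after estradiol withdrawal, limma called 0 of the 4 tested members, and 0 had an unadjusted p below 0.05. The background was 0% of the genes tested, with 1129 genes at an unadjusted p below 0.05. Log2FC were 0.16 for Hoxb4, -0.14 for Hoxa7, 0.01 for Hoxa9 and 0.29 for Meis1, each within its SE of 0.54 to 0.58. Hoxa7, Hoxa9 and Meis1 passed the filter through the marrow libraries alone and held few reads at both times. The fit could hardly show a fall in them, so their values and missing calls are descriptions. Hoxb4 was 0.05 without day 4 replicate 1 and 0.48 without day 4 replicate 3. Removal of day 4 replicate 2 drops Hoxb4 below the filter, and in a fit that kept the tested genes it reversed to -0.05. Meis1 was 0.09 without day 0 replicate 3 and 0.45 without day 0 replicate 2, and Hoxa7 and Hoxa9 reversed without day 4 replicate 3 (0.07) and day 4 replicate 1 (-0.11). At day 4 the macrophage markers summed to 8246, 5491 and 4042 CPM and the progenitor markers to 38.4, 49.2 and 41.4 CPM in replicates 1 to 3. Day 0 replicate 2, at 5294 and 34.6 CPM, was thus already near day 4 replicate 2, and its part in the absence of calls was not tested.

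Between BM monocytes and BM progenitors, the comparison that follows maturation in the marrow, 1 of the 4 tested members was called, at a background of 6.84%. Hoxa9 was lower in monocytes with a log2FC of -3.15 (SE 0.54, adjusted p = 0.00436) and no overlap. Hoxa7 did not overlap between the groups either, but its log2FC of -1.87 missed the threshold (SE 0.57, adjusted p = 0.0516). Without BM monocyte replicate 2, the highest of the 3, it was -2.42 and passed, and without BM monocyte replicate 3 it was -1.58. Hoxb4 gave 0.95 (SE 0.56, adjusted p = 0.283) and Meis1 -0.98 (SE 0.58, adjusted p = 0.283). Hoxb4 was 0.62 without BM progenitor replicate 1 and 1.43 without replicate 2, and Meis1 -1.49 without BM monocyte replicate 1 and -0.28 without replicate 3.

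The genes around the members were followed with lists of related genes, each described by its counts and, where more than a few genes were tested, its median beside all genes. In ER-Hoxb8 against BM progenitors, where 15.3% of all genes tested were called, 4 of 39 HOX genes were tested. The 2 called were Hoxa7 and Hoxa9, both lower. More HOX genes were detected below the filter: 16 of 39 had more than 3 reads over the BM progenitor libraries and 9 over the ER-Hoxb8 progenitor libraries. Of the 9 TALE cofactors tested of 11, 4 were called lower and 1 higher, with a median log2FC of -0.88 against -0.08 for all genes. Meis1, Pbx4 (-5.78) and Tgif2 (-2.55) were among those lower, and the higher one was Pknox2, a relative of Meis1, at 6.89 (SE 1.21, adjusted p = 0.00152).

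Of 18 genes tied to HOX and MEIS1 in progenitors, 17 were tested, with 9 called lower, 0 higher and a median of -4.01, beside 15.3% of all genes called. The kinase-related Trib2, a known partner of HOXA9 and MEIS1 in leukemia models, had the lowest value (log2FC -9.88, SE 0.45, adjusted p = 1.37e-07). The stem cell factor Gata2 (-6.99), the bZIP factor Hlf (-6.72), Sox4 (-5.91) and the surface protein Cd34 (-5.83) were also called lower. Whether genes of these lists passed the filter through the marrow libraries alone, as Meis1 did, is not given here. Their counts and values are descriptions. Chromatin regulators of HOX genes, such as the Kmt2a and Polycomb complexes, gave 1 call in 14 tested of 15, the Polycomb subunit Cbx2 at -3.81, and a median of -0.49. Because the progenitor lists move with the cell mixture described by the markers, what they share with the members cannot be told apart from it.

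**Figure D2:**
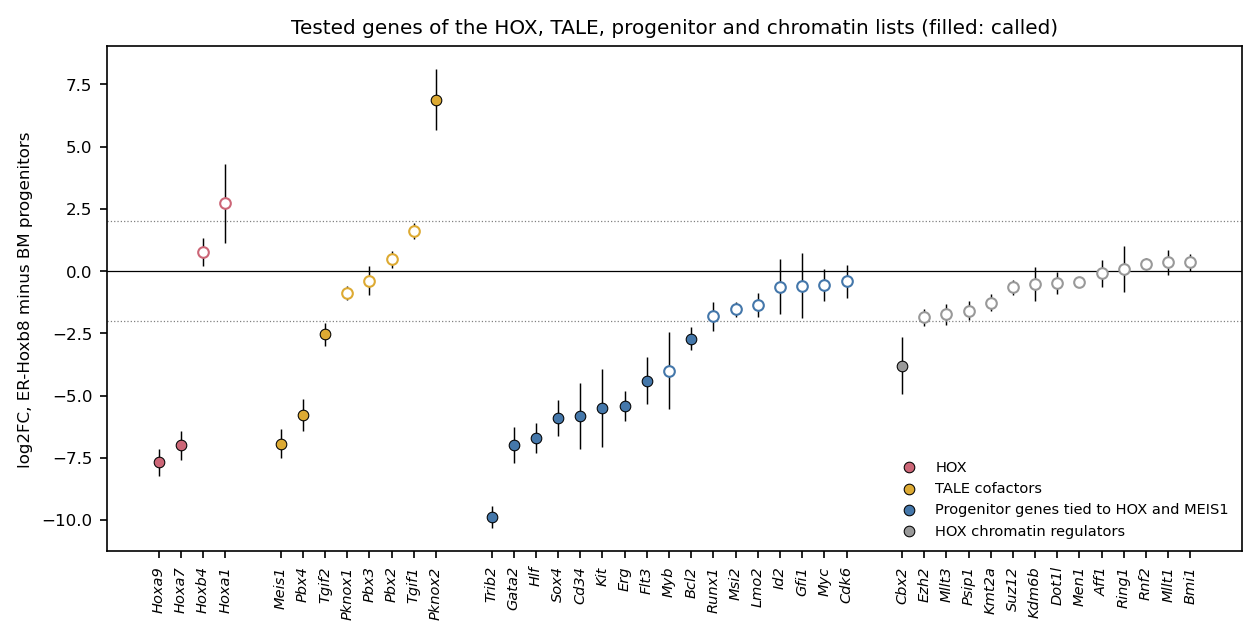
Points show the log2FC of ER-Hoxb8 over BM progenitors (vertical axis) with SE bars for tested genes of the 4 lists, sorted within a list, where filled points were called and dotted lines mark the limit of 2. Trib2 is lowest at -9.88, Pknox2 is highest at 6.89, and chromatin regulators run from -3.81 (Cbx2) to 0.35 (Bmi1).

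Between BM monocytes and progenitors the same lists gave 1 of 4 HOX genes (Hoxa9), 1 of 9 TALE cofactors (Pbx4, -3.53), 4 of 17 progenitor genes and 1 of 14 chromatin regulators (Mllt3, -2.18), all lower. Over all genes tested, 6.84% were called. The progenitor genes were Trib2 (-5.04), Hlf (-4.03), the RNA-binding protein Msi2 (-2.68) and Myc (-2.29). Median log2FC of the TALE, progenitor and chromatin lists were -0.27, -1.92 and -0.68, against -0.09 over all genes tested. From day 0 to day 4, 0 genes of the lists were called, with medians of 0.27, -0.49 and -0.20 for the same lists, against -0.01 over all genes. With genes near a count of 0 set to their bound, the progenitor median was 0.

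Promoter sequences of 3 members are shown because Hoxa9 and Meis1 fell together in ER-Hoxb8 cells while Hoxb8 is the gene the cells carry as a transgene. RefSeq has an entry for all 6 members (7 entries, as Hoxa10 has 2), each with 300 bases around the start on build GRCm38.p6. The window of Hoxb8 is chr11:96281655-96281954 on the plus strand, that of Hoxa9 chr6:52227321-52227620 on the minus strand and that of Meis1 chr11:19018920-19019219 on the minus strand. Letters run 5′ to 3′ on the gene's strand. Capitals mark GAGGAA, an ETS core, or TTTATNG, a core for AbdB-type HOX proteins, on either strand, and no marked match overlaps another.
Hoxb8: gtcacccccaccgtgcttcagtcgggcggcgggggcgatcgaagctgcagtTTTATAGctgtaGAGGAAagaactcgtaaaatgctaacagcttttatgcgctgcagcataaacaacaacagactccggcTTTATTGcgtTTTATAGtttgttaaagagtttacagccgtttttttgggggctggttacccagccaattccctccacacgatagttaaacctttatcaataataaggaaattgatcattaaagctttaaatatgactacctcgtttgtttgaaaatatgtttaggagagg
Hoxa9: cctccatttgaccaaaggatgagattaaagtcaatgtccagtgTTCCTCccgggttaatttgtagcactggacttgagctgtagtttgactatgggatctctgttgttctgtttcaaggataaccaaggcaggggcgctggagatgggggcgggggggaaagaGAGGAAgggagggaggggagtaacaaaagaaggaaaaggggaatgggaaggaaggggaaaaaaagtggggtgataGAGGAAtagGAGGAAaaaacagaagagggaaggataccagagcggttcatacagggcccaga
Meis1: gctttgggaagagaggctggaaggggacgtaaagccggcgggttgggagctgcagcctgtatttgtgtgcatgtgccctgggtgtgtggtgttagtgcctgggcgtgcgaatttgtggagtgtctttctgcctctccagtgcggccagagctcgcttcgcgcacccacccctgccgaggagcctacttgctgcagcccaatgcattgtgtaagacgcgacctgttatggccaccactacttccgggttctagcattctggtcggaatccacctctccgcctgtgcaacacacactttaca
GAGGAA occurs 1 time in the Hoxb8 window and 4 times in that of Hoxa9, and is held by 28.3% of 32851 RefSeq promoters of this length. TTTATNG occurs 3 times in the Hoxb8 window and in 10.9% of promoters. The MEIS core TGACAG (19.2% of promoters) and the HOX and PBX site TGATTNAT (3.22%) are in none of the 7 entries. The windows of Hoxb8, Hoxa9 and Meis1 hold 13, 4 and 15 CpG, against a median of 7 over all promoters.

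In day 7 macrophages and brain cells, Hoxb8 was at the lowest value in every library of BMD macrophages, BMD MLCs, ER-Hoxb8 MLCs and microglia. The ER-Hoxb8 macrophages stood at -0.27, -1.47 and -3.62, or 23.8, 9.52 and 0 reads, so that replicate 3 was without a read. That library also stood apart in its proliferation markers, which summed to 724, 571 and 96.0 CPM in replicates 1 to 3. They had summed to 96.3, 712 and 1562 CPM at day 0 and to 960.0, 719 and 1783 CPM at day 4, and a link to Hoxb8 was not tested. Against BMD macrophages Hoxb8 was at least 9.03-fold higher, or 3.69-fold without ER-Hoxb8 macrophage replicate 1, with overlap at the lowest value (exact permutation p = 0.4, adjusted p = 0.8). In ER-Hoxb8 MLCs it was at least 13-fold lower than in ER-Hoxb8 macrophages, or 5.33-fold without macrophage replicate 1 (exact permutation p = 0.167, adjusted p = 0.5, where 0.0238 is the smallest possible). All 6 ER-Hoxb8 MLC libraries thus held no Hoxb8 read, at depths down to 9.44 M. The labels do not say whether these MLCs came from the same lines as the ER-Hoxb8 macrophages.

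Hoxa9 was also at the lowest value in all 27 libraries of this set. Hoxa10 had reads in BMD macrophage replicate 1 (-1.64, 5.11 reads) and microglia replicate 5 (-3.15, 0.962 read) and in no other library. Fitted values are therefore given for Hoxb4, Hoxa7 and Meis1, the 3 of 6 members that passed the filter here. Hoxa7 passed only through BMD MLC replicate 3, ER-Hoxb8 MLC replicate 5 and microglia replicate 8, so that removing any of these ends its test. Its values without them come from a fit that kept the tested genes, an alternative chosen after the data were seen.

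Meis1 was highest in microglia, where it ran from 1.17 (replicate 8) over a median of 3.33 to 3.69. BMD macrophages stood at 1.50, 0.74 and 1.59, and BMD MLCs ran from -1.89 over a median of 0.90 to 2.96. ER-Hoxb8 macrophages stood at -1.84, -1.53 and -1.85 (5.41 to 9.02 reads), and ER-Hoxb8 MLCs ran from -1.98 over a median of -1.26 to 2.07, the last in replicate 6. In the order of means, microglia, BMD macrophages, BMD MLCs, ER-Hoxb8 MLCs and ER-Hoxb8 macrophages, each neighbouring pair overlapped. Between the macrophages in vitro, however, all 3 ER-Hoxb8 libraries lay below all 3 BMD libraries.

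Hoxb4 was highest in MLCs. BMD macrophages stood at -1.31, -0.92 and -2.24 and ER-Hoxb8 macrophages at -0.72, 0.41 and -0.10, without overlap. BMD MLCs ran from 0.37 over a median of 1.32 to 2.14, and ER-Hoxb8 MLCs from 0.64 over 1.35 to 3.42. Microglia ran from -0.56 over 0.10 to 1.72, and in the order ER-Hoxb8 MLCs, BMD MLCs, microglia, ER-Hoxb8 macrophages, BMD macrophages only the last neighbours did not overlap.

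Hoxa7 stayed near the lowest value in most of these libraries. BMD macrophages stood at -3.01, -0.52 and -1.13, and each ER-Hoxb8 macrophage library held about 1 read (-3.18, -3.20 and -3.12). BMD MLCs ran from -3.62 over -2.43 to 1.39, ER-Hoxb8 MLCs from -3.62 over -3.07 to 0.18 and microglia from -3.62 over -2.21 to 0.65. In each brain group a single library stood above the rest: BMD MLC replicate 3, ER-Hoxb8 MLC replicate 5 and microglia replicate 8.

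**Figure D3:**
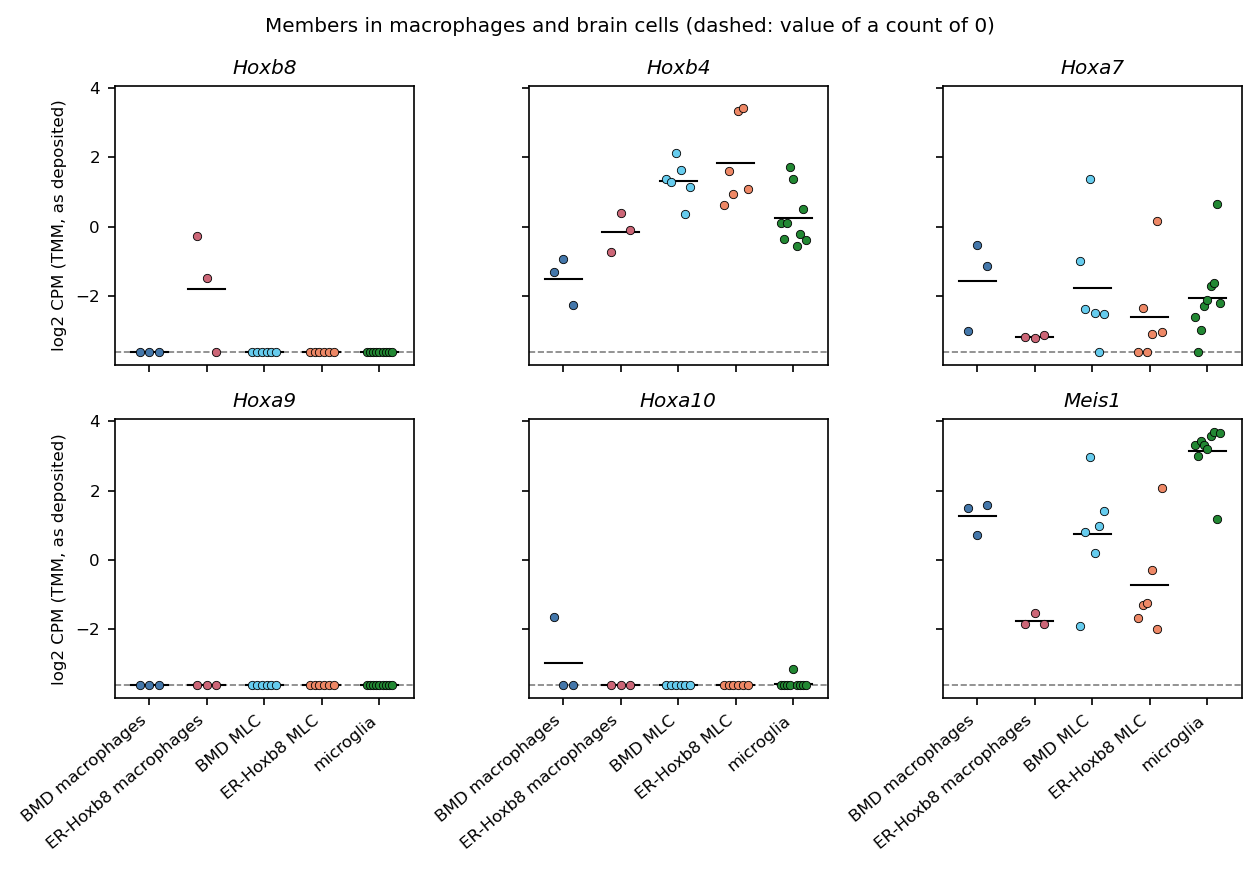
Each panel shows 1 gene in log2 CPM (vertical axis) for every library of macrophages in vitro, MLCs and microglia, with bars at the mean and a dashed line at the value of a count of 0. Hoxb8 leaves the dashed line only in ER-Hoxb8 macrophages (up to -0.27), Hoxa9 never does, and 8 of 9 microglia libraries hold Meis1 at 3.00 or above.

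Cell mixtures differed between these groups as well. The 5 microglia markers summed to 45343 to 74002 CPM in microglia, 5034 to 16736 CPM in BMD MLCs and 827 to 9620.2 CPM in ER-Hoxb8 MLCs. Neutrophil markers, led by Ngp in most libraries, summed to 4431 to 32940.0 CPM in BMD MLCs. In ER-Hoxb8 MLCs they were at 759.7, 237 and 329.7 CPM in the GFPHox libraries and 17827, 41010.5 and 3345 CPM in the WTHox libraries, and in microglia at 406 to 5846.5 CPM. Neuron markers reached 126 CPM (led by Stmn2), oligodendrocyte markers 628 CPM (with Mog at 0) and astrocyte markers 116 CPM (led by Aldoc, with Aqp4 at 0) in microglia replicate 8, against medians of 1.74, 34.6 and 5.63 CPM in the group. Endothelial markers stayed at or below 90.6 CPM in these groups, and their marker Cldn5 was at 0 in 32 of the 39 libraries of marrow, ER-Hoxb8 and brain cells. Monocyte markers summed to 559 to 1538 CPM in BMD MLCs and 18.1 to 122 CPM in microglia. In ER-Hoxb8 MLCs they stood at 7577 CPM in replicate 6 and 224 to 787 CPM in the others, and replicate 6 also had the lowest microglia sum and the highest Meis1 of its group. The part of these markers in the members' values was not tested.

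In ER-Hoxb8 against BMD macrophages, limma called 0 of the 3 tested members at a background of 2.18% of 13377 genes. Of the 3, 1 had an unadjusted p below 0.05, as did 1176 of all genes tested. Meis1 was 11.1-fold lower, with a log2FC of -3.02 (SE 0.94, adjusted p = 0.111) and no overlap. Of the BMD macrophages, replicate 3 has a library name unlike those of the other 2, and it stood apart in monocyte markers (57.2, 39.7 and 1133 CPM in replicates 1 to 3) and proliferation markers (212, 89.0 and 1056 CPM). In ER-Hoxb8 macrophages monocyte markers summed to 475, 2486 and 91.6 CPM, so libraries of both groups differed in them. Without BMD macrophage replicate 3 the log2FC of Meis1 was -2.86, and the part of these markers in it was not tested. With a weight for each library, its value of -3.04 passed the threshold. Hoxb4 was 2.92-fold higher without overlap (log2FC 1.35, SE 0.75, adjusted p = 0.706). The ratio of Hoxa7 was 11.6, lower in ER-Hoxb8 cells, with a counting interval of 3.81 to 62.4, or 7.05 without BMD macrophage replicate 2 (log2FC -1.62, adjusted p = 0.871).

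BMD MLCs were set against BMD macrophages as brain cells against cultured cells, and the MLCs were injected as marrow and not as these macrophages. Of 3 tested members 1 was called at a background of 16.2%. Hoxb4 was 8.66-fold higher in the MLCs without overlap (log2FC 2.81, SE 0.65, adjusted p = 0.00189). With log2(CPM + 1) it was 1.42 and the call was lost. Meis1 gave a log2FC of -0.53 (SE 0.81, adjusted p = 0.654), which was -0.97 without BMD MLC replicate 3 and 0.00 without replicate 1. Hoxa7 gave -0.21 (SE 0.93, adjusted p = 0.887), or -0.94 without BMD macrophage replicate 1, 0.30 without replicate 2 and -0.84 without BMD MLC replicate 3.

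Labels do not say whether ER-Hoxb8 MLCs and ER-Hoxb8 macrophages came from the same lines. Between them limma called 0 of 3 at a background of 19.3%. Of the 3, 1 had an unadjusted p below 0.05, as did 5954 of the 13377 genes tested. Hoxb4 was 5.54-fold higher without overlap, and its log2FC of 1.98 (SE 0.65, adjusted p = 0.0202) fell short of the limit of 2. It passed the limit without ER-Hoxb8 macrophage replicate 2 (2.25) and without ER-Hoxb8 MLC replicate 1 (2.22), 2 (2.03), 3 (2.16) or 6 (2.13). It was 1.69 without ER-Hoxb8 macrophage replicate 1, 1.68 without ER-Hoxb8 MLC replicate 4, 1.66 without ER-Hoxb8 MLC replicate 5 and 1.20 with GFPHox libraries only. MLC replicates 4 and 5 held the highest Hoxb4 (3.34 and 3.42, others 0.64 to 1.61) and the highest neutrophil sums of the group, and a link was not tested. Meis1 gave 1.01 (SE 0.81, adjusted p = 0.348), or 0.45 without ER-Hoxb8 MLC replicate 6, and Hoxa7 0.58 (SE 0.93, adjusted p = 0.656), or 0.03 without ER-Hoxb8 MLC replicate 5. How the MLC against macrophage difference varies between the cell types was tested directly and was not called for Hoxb4 (-0.83, SE 0.91, adjusted p = 0.749), Hoxa7 (0.79, adjusted p = 0.855) or Meis1 (1.54, SE 1.15, adjusted p = 0.589).

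Against microglia, which are the cells MLCs are meant to replace, 1 of 3 tested members was called in ER-Hoxb8 MLCs at a background of 16.2%. Meis1 was lower (log2FC -3.89, SE 0.61, adjusted p = 1.3e-05), and removing any single library gave -4.45 to -3.64. Hoxb4 was 3.67-fold higher with overlap (log2FC 1.58, SE 0.48, adjusted p = 0.0121), below the limit of 2. It was 0.81 with GFPHox libraries only and 2.36, past the threshold, with WTHox libraries only. Hoxa7 gave -0.54 (SE 0.69, adjusted p = 0.598), or -0.33 without ER-Hoxb8 MLC replicate 1, -1.09 without ER-Hoxb8 MLC replicate 5 and -0.20 without microglia replicate 8. In BMD MLCs 1 of 3 was called as well, at a background of 10.6%, again Meis1, which was lower (log2FC -2.41, SE 0.61, adjusted p = 0.00478). This call was lost without BMD MLC replicate 1, the lowest library (log2FC -1.88). Hoxb4 gave 1.06 (SE 0.48, adjusted p = 0.13) and Hoxa7 0.29 (SE 0.69, adjusted p = 0.839), which reversed to -0.34 without BMD MLC replicate 3 and was 0.66 without BMD MLC replicate 5. Both comparisons share the microglia libraries.

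Directly between the MLC types limma called 0 of 3 at a background of 6.67%. Of the 3, 1 had an unadjusted p below 0.05, as did 3818 of the 13377 genes tested. Meis1 was lower in ER-Hoxb8 MLCs (log2FC -1.48, SE 0.66, adjusted p = 0.14) with overlap. The value was -2.01 without BMD MLC replicate 1 and -2.04 without ER-Hoxb8 MLC replicate 6, and both passed the threshold. Without BMD MLC replicate 3 it weakened to -1.04. Hoxb4 gave 0.52 (SE 0.53, adjusted p = 0.564) or 0.20 without ER-Hoxb8 MLC replicate 5 and -0.26 with GFPHox libraries alone, and Hoxa7 gave -0.83 (SE 0.76, adjusted p = 0.515), or -0.20 without BMD MLC replicate 3 and -1.38 without ER-Hoxb8 MLC replicate 5. Quantile normalization moved the median of all genes by 0.11 log2 and the share of calls that were higher from 33.3% to 43.6%.

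Single genes of the related lists were called in these comparisons, and no list was tested as a set. Between MLC types, where 6.67% of all genes tested were called, the HOX gene Hoxb3 was called lower in ER-Hoxb8 cells (-2.19). Of 8 TALE cofactors 0 were called, and Myb (-3.11), Cd34 (-2.29) and Sox4 (-2.25) were the 3 of 14 progenitor genes called. Of 15 chromatin regulators 1 was called, Mllt3 at 3.90, a reader of acylated histones. Against microglia, 4 of 8 TALE cofactors were lower in ER-Hoxb8 MLCs, among them Meis1, Tgif2 (-3.12) and Meis3 (-2.03), and 2 of 8 in BMD MLCs, Meis3 (-3.23) and Meis1. Over all genes tested, 16.2% and 10.6% were called in these comparisons. Median log2FC of the TALE list were -1.48 and -0.79, against -0.10 and 0.07 over all genes. Among progenitor genes Hlf (-6.20 and -4.71) and Sox4 (-5.43 and -3.18) were lower in both MLC types, Cd34 (-2.90) in ER-Hoxb8 MLCs, and Myb (2.70) and Myc (2.43) were higher in BMD MLCs. Hoxb3 was higher in BMD MLCs than in microglia (2.65), and Mllt3 was higher in ER-Hoxb8 MLCs (2.94). In MLCs against macrophages, Flt3 (4.55 and 2.81), Sox4 (3.85 and 2.36) and the demethylase gene Kdm6b (3.52 and 4.22) were called higher in BMD and in ER-Hoxb8 cells, Myb (4.49), Hlf (2.99) and Id2 (-2.96) only in BMD cells and Men1 (-2.09) only in ER-Hoxb8 cells, a contrast that was not tested.

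Likeness over libraries was measured by Pearson's r of log2 CPM, over points that share groups and depth, and is a description only. In the 12 libraries of marrow and early ER-Hoxb8 cells, genes most like Hoxa9 included Smim1 (0.996), Aqp1 (0.993), 9030619P08Rik (0.992) and Zap70 (0.990). Those most like Meis1 included Ehd3 (0.997), Sdc2 (0.994) and Igkv9-120 (0.993). Hoxb8 was most like Tes (0.950), Tmem119 (0.938), Tmem55a (0.937), Ttc21b (0.935) and Ykt6 (0.933). An absolute r above 0.9 was reached by 718 of 12056 genes for Hoxa9, 749 for Meis1 and 96 for Hoxb8. In the 27 libraries of macrophages and brain cells the best matches were weaker, with A630033H20Rik (0.872), Rps4l (0.868), Armcx2 (0.867), Slc12a2 (0.866) and Qpct (0.855) for Meis1 and Gm8773 (0.796), Klk1b11 (0.765), Sox5 (0.730), Rhoj (0.726) and Fam78b (0.723) for Hoxb8.

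In the guide lines, the targeted gene Adar was read first. It stood at 4.20, 3.42 and 4.28 in NTC progenitors and 4.36, 4.23 and 4.24 in sgRNA 1 progenitors. NTC macrophages stood at 5.73 and 5.67 and sgRNA 1 macrophages at 6.96, 7.15 and 7.01, while sgRNA 2 lines gave 4.35, 4.56 and 4.36 as progenitors and 6.99 to 7.03 in the 5 macrophage libraries. Among these libraries, none of which was given a drug, Adar was thus not lower with sgRNA 1 than with NTC (log2FC 1.34 in sgRNA 1 against NTC macrophages, SE 0.21, adjusted p = 0.000976). A gene-level count does not check an edit in the coding sequence, and these libraries are called by their label.

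Hoxb8 stood at 0.48, -0.58 and 1.05 in NTC progenitors and at 1.13, 1.09 and 1.50 in the progenitors labelled sgRNA 1. As macrophages the lines stood at -1.27 and 0.47 (NTC replicates 1 and 3, with replicate 2 normalized alone at -0.91) and at -2.62, 0.27 and -0.08 (sgRNA 1). In the sgRNA 2 lines, normalized apart, Hoxb8 was at 2.24, 3.19 and 2.44 in progenitors and 1.04, 0.51, 1.79, 1.47 and 1.36 in macrophages. Progenitors lay above macrophages without overlap for both Adar1 guides, while the NTC groups overlapped. Progenitor markers moved with this step, from 14913 to 21027 CPM to 5.46 to 12.4 CPM in sgRNA 1 lines, 20391 to 28644 CPM to 1.87 and 2.70 CPM in NTC lines and 4081 to 4713 CPM to 9.06 to 10.6 CPM in sgRNA 2 lines, and their part in the result was not tested.

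Of the members, only Hoxb8 and Hoxb4 passed the filter in the guide and baricitinib experiments. From progenitor to macrophage in sgRNA 1 lines 1 of 2 was called at a background of 21.6%, with Hoxb8 3.38-fold lower (log2FC -2.05, SE 0.73, adjusted p = 0.0244). The call was lost without sgRNA 1 progenitor replicate 3 (-1.92) and without sgRNA 1 macrophage replicate 1, the lowest library (-1.15). In sgRNA 2 lines limma called 0 of 2 at a background of 19.3%, and 1 had an unadjusted p below 0.05, as did 8802 of the 10698 genes tested. This member, Hoxb8, was 2.68-fold lower, with a log2FC of -1.39 (SE 0.31, adjusted p = 0.00202) short of the limit of 2. In NTC lines 0 of 2 were called at a background of 23.5%, with 0 at an unadjusted p below 0.05, against 8135 of the 11008 genes tested. Hoxb8 gave -0.72 (SE 0.81, adjusted p = 0.441) or 0.15 without NTC macrophage replicate 1. The change in sgRNA 1 and NTC lines was compared directly and did not pass (-1.34, SE 1.09, adjusted p = 0.454).

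Between guides at the same stage, sgRNA 1 against NTC progenitors gave 0 of 2 members by limma (background 0.254%). Of the members 0 had an unadjusted p below 0.05, against 725 of the 11008 genes tested. Hoxb8 was 1.78-fold higher without overlap (log2FC 0.92, SE 0.73, adjusted p = 0.963), with 0.47 left without NTC progenitor replicate 2. In macrophages 0 of 2 were called (background 4.02%), again with 0 at an unadjusted p below 0.05, against 3938 of all genes tested. Hoxb8 gave -0.41 (SE 0.81, adjusted p = 0.76). This value was 0.49 without sgRNA 1 macrophage replicate 1 and -1.28 without NTC macrophage replicate 1, and quantile normalization moved the median of all genes by -0.10 log2. Hoxb4 stood at 0.02 ± 0.45 (SD, n = 3) in NTC progenitors, 0.29 ± 0.19 in sgRNA 1 progenitors and 0.40 ± 0.44 in sgRNA 1 macrophages. In NTC macrophages it was at 0.45 ± 0.09 (n = 2), with replicate 2, normalized alone, at -0.59. In their own set, sgRNA 2 progenitors and macrophages stood at 0.83 ± 0.16 and 0.89 ± 0.33 (n = 5).

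The other members were near a count of 0 in these lines. Hoxa7 held at most 9.98 reads in a library (sgRNA 2 progenitor replicate 1), Hoxa10 about 1 read and Meis1 at most 7.04. Hoxa9 had at most 6.80 reads in a library (sgRNA 2 progenitor replicate 1), none in macrophages of either Adar1 guide and 1.93 reads in NTC macrophage replicate 3. Of the TALE cofactors, Pknox2 was lower in macrophages of NTC (-8.72), sgRNA 1 (-6.46) and sgRNA 2 lines (-5.60) and higher in sgRNA 1 than in NTC macrophages (2.35), and Meis3 was higher in macrophages of all 3 (3.08, 2.90 and 4.35). Among progenitor genes Myb (-9.89, -8.68 and -8.20), Gfi1 (-7.20, -6.98 and -6.16) and Myc (-6.02, -4.40 and -4.45) were called lower and Id2 higher (7.06, 7.69 and 5.25) in the same order, and Bcl2 was higher in sgRNA 1 than in NTC macrophages (2.19). Counts for the TALE list were 1 higher and 1 lower of 7 in each line, and those for the progenitor list 1 and 6 of 12, 3 and 6 of 12, and 4 and 5 of 11. Over all genes tested, 23.5%, 21.6% and 19.3% were called in NTC, sgRNA 1 and sgRNA 2 lines. Chromatin regulators called were Ezh2 (-2.58) in NTC, Mllt1 (-3.60) in sgRNA 1, and Kdm6b (-3.05) and Mllt1 (-2.50) in sgRNA 2 lines. Between sgRNA 1 and NTC progenitors 0 genes of the lists were called.

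**Figure D4:**
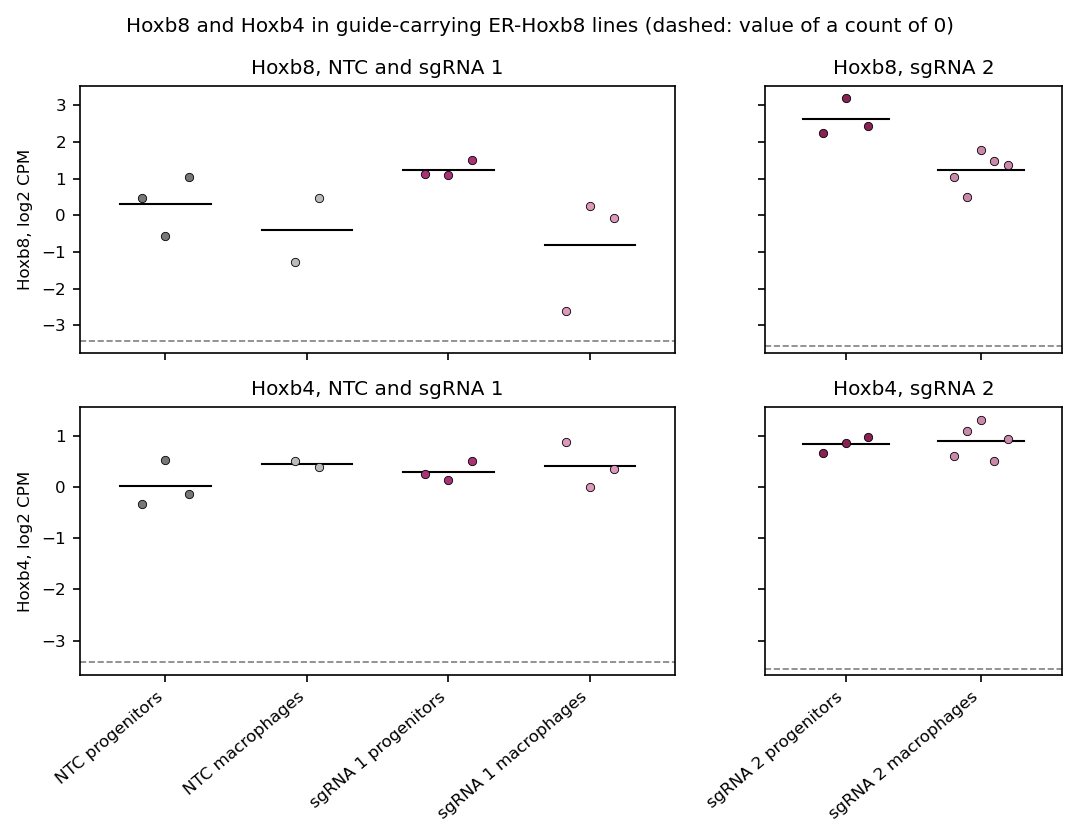
Points show Hoxb8 (upper panels) and Hoxb4 (lower panels) in log2 CPM for every library of the NTC and sgRNA 1 lines (left) and the sgRNA 2 lines (right, normalized apart), with bars at the mean and a dashed line at the value of a count of 0. Hoxb8 falls from 2.62 to 1.23 on average in sgRNA 2 lines, while Hoxb4 moves from 0.83 to 0.89.

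Baricitinib was given to NTC macrophages and to sgRNA 1 macrophages labelled Adar1 KO. Adar stood at 5.12, 4.94 and 4.69 in NTC and 7.42, 6.52 and 6.37 in KO-labelled macrophages without drug, and at 3.70, 3.64 and 3.22 against 1.55, 2.15, 2.91 and 2.03 at 10 uM. Hoxb8 stood at 0.87, 0.08 and 1.09 in NTC and at 0.44, 0.33 and -0.36 in KO-labelled macrophages without drug. At 10 uM it stood at -1.47, 0.56 and -0.95 in NTC and at -1.95, -2.09, -2.12 and -2.07 in KO-labelled cells, the last with 1.25 to 1.91 reads a library. The KO-labelled libraries at 10 uM lay below all without drug, and the NTC libraries overlapped.

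Means of Hoxb8 over the doses 0, 0.0006, 0.016, 0.4 and 10 uM were 0.68, 0.73, 0.45, 0.11 and -0.62 in NTC and 0.14, -0.48, -1.43, -1.04 and -2.06 in KO-labelled macrophages. At 0.0006 uM KO-labelled libraries stood at -0.43, -0.31 and -0.71, at 0.016 uM at -2.78 (no read at a depth of 8.23 M), -1.58 and 0.07 and at 0.4 uM at -0.57, -1.82 and -0.73. NTC libraries stood at 0.78, 0.63 and 0.77, at 0.23, 0.02, 0.97 and 0.55, and at 1.36, -0.10, 0.32 and -1.14 at the same doses. Libraries of neighbouring doses overlapped in each line, except in KO-labelled cells from 0.4 to 10 uM.

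In KO-labelled macrophages 1 of 2 tested members was called between 10 and 0 uM, at a background of 14.7%. Hoxb8 was 10.4-fold lower (log2FC -2.20, SE 0.55, adjusted p = 0.000959), and removing any single library gave -2.45 to -2.04. Both values rest on 1.25 to 1.91 reads a library at 10 uM, where the fitted one depends on the prior count. The call was lost with log2(CPM + 1), at -0.85, and with only the 2 groups fitted Hoxb8 missed the filter and was not tested. Hoxb4 went the other way without overlap, from -1.21, -0.88 and -0.49 to 0.16, 1.09, 0.39 and 1.06, a 3.63-fold higher mean CPM (log2FC 1.53, SE 0.36, adjusted p = 0.000467) below the limit of 2. In NTC macrophages limma called 0 of 2 at a background of 0.834%. Both had an unadjusted p below 0.05, as did 3169 of the 11152 genes tested. Hoxb8 gave a log2FC of -1.30 (SE 0.59, adjusted p = 0.142). It was -1.89 without NTC replicate 2 at 10 uM, the highest of its group, and -0.88 without replicate 1, the lowest. Hoxb4 was 2.12-fold higher (0.88, SE 0.38, adjusted p = 0.125). The difference between the lines, which uses the same libraries, did not pass for Hoxb8 (-0.90, SE 0.80, adjusted p = 0.396) or Hoxb4 (0.65, SE 0.52, adjusted p = 0.337).

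Without drug, KO-labelled against NTC macrophages gave 0 of 2 by limma at a background of 3.87% (Hoxb8 -0.54, SE 0.59, adjusted p = 0.544). Of the members 0 had an unadjusted p below 0.05, against 4091 of the 11152 genes tested. Hoxb8 was -0.84 without NTC replicate 2 and -0.29 without KO-labelled replicate 3. Averaged over the 5 doses, 0 of 2 were called at a background of 2.2%. Both had an unadjusted p below 0.05, as did 6823 of the 11152 genes tested. Hoxb8 was at -1.24 (SE 0.25, adjusted p = 0.000138) and Hoxb4 at 0.47 (SE 0.16, adjusted p = 0.0161), both short of the limit of 2.

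Proliferation markers moved with the dose, led by Top2a. Their sum was 131, 147 and 174 CPM without drug and 1823, 2683, 2202 and 2033 CPM at 10 uM in KO-labelled cells, and 383, 569.8 and 484 CPM against 1153, 1489 and 939 CPM in NTC cells. Macrophage markers summed to 6252 to 6865 CPM and 3491 to 4205 CPM in KO-labelled cells at these doses. At 0.4 uM, KO-labelled replicate 2 kept a low proliferation sum (155 CPM, against 758 and 676 CPM) and had the lowest Hoxb8 of its group. Its Adar was 7.38, against 4.12 and 4.21 in replicates 1 and 3, and lay within the range without drug. Its monocyte markers (1885 CPM, against 2414 and 2026 CPM) and microglia markers (1872 CPM, against 1667 and 1586 CPM) were near those of the other replicates and above those without drug (626 to 690.1 and 672 to 1020.3 CPM). Whether this library received the drug cannot be told from these data, and it is part of the dose mean and of the average over doses. Hoxa7, Hoxa9, Hoxa10 and Meis1 held fewer than 10 reads in every library of this experiment and were not tested. What the markers contribute to the Hoxb8 values was not tested. Of the lists, Cd34 (2.80), Ezh2 (3.22) and Psip1 (2.00) were called higher and Hoxb8 alone lower between 10 and 0 uM in KO-labelled cells. These were out of 4 HOX, 6 TALE, 8 progenitor and 15 chromatin genes tested, beside 14.7% of all genes called. In the other 3 comparisons 0 genes of the lists were called.

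**Figure D5:**
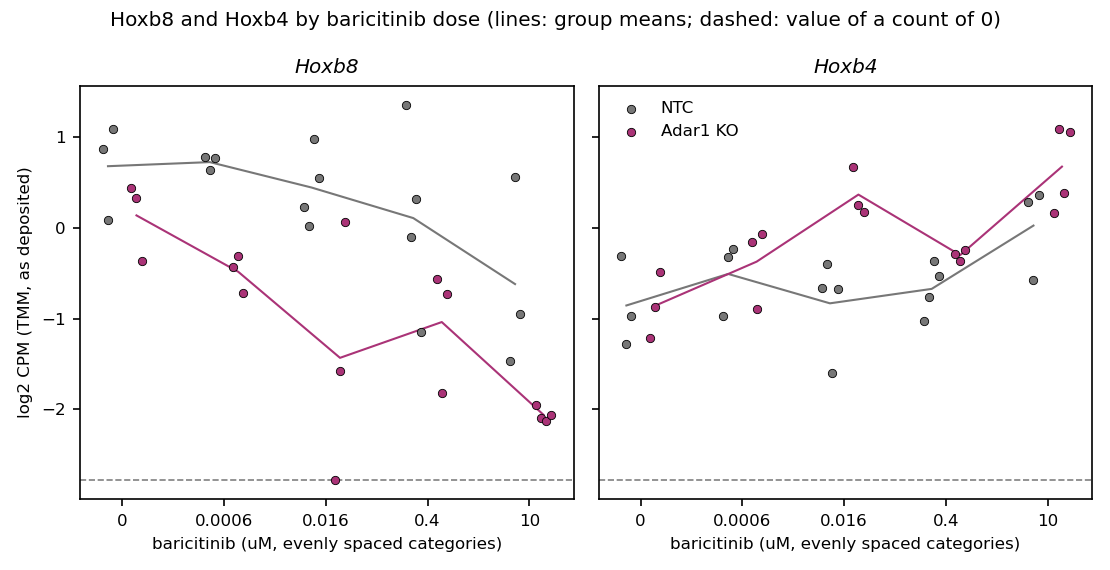
Points show Hoxb8 (left) and Hoxb4 (right) in log2 CPM for every NTC and KO-labelled macrophage library by baricitinib dose in uM (evenly spaced categories), with lines through the means and a dashed line at the value of a count of 0. In KO-labelled cells Hoxb8 goes from a mean of 0.14 to -2.06 and Hoxb4 from -0.86 to 0.68 between 0 and 10 uM.

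Limits apply to all values above. Reads were estimated from rounded log2 values and are not the counts themselves, and several groups hold 3 libraries. The endogenous Hoxb8 gene and the transgene share one value, so neither the source of Hoxb8 reads nor the edit at Adar can be read from these data. Hoxa9, Hoxa10 and Hoxb8 are at a count of 0 in many libraries, where only bounds can be given. Marrow, ER-Hoxb8 and brain groups differ in cell mixture, genotype and preparation, and the part of each in the member differences was not tested.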

How the data were processed

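The deposited values are log2 CPM normalized by the authors with TMM (edgeR), after fastp, kallisto 0.46.0 on GRCm39 transcripts and tximport, and no counts were used here. The table has 29957 lines, of which 1 has no gene name and holds 0.00226% to 0.0584% of a library. It was left out, and 0 columns were unused. Each of 6 normalization sets has its own value for a count of 0 (-4.34, -3.62, -3.43, -3.09, -3.56 and -2.78), so levels are compared only within a set, apart from an alternative that adds NTC macrophage replicate 2. CPM was recovered by subtracting that value on the linear scale, assuming a prior count of 2. Depth was estimated from the step of 1 read, and its mean differs most from that of the prior count in the third set, at 26.1 M against 21.5 M, while the second set gives 24.4 M and 24.5 M. Of the low values 32.4% to 40.0% fell near whole reads, at a tolerance of 0.05, so reads are estimates.

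Group means were fitted with limma 3.58.1 in R 4.3.3 (empirical Bayes with trend) for each set, with a filter of CPM above 1 in 3 libraries and adjustment over all genes tested. Summaries used Python 3.11.15, numpy 2.4.6, pandas 2.3.3, scipy 1.17.1 and matplotlib 3.10.9. Members below the filter were compared by exact permutation in 10 tests, chosen after their low values were seen. Alternatives changed the filter, offset, scaling, weights, fold limit, libraries in the fit, library series and replicate block, and removed each library in turn. Among comparisons with 3 or more pairs, deviations of libraries with the same replicate number correlated above 0.1 in every pair from day 0 to day 4 (0.226, 0.372 and 0.427) and between sgRNA 1 and NTC progenitors (0.349, 0.158 and 0.217), so the numbers pair these libraries. With 2 pairs, sgRNA 1 and NTC macrophages gave 0.158 and 0.153. The fits reported have no block, and a replicate block was run as an alternative.

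The 6 members were described in every group. Related genes came from lists of HOX genes (39), TALE cofactors (11), progenitor genes tied to HOX and MEIS1 (18) and HOX chromatin regulators (15), with up to 5 called genes of largest change named per list. Esr1, Adar and genes from the 5 most like Hoxb8, Hoxa9 and Meis1 were added, and 14 marker lists describe cell types. Members and lists were chosen with earlier results of these data known. Some genes of these lists are not reported here.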

Additional observations from a re-analysis of the deposited data

Results flagged for a closer look

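Each of 27 groups of member values was searched for a library far from the others, and 6 such values in 5 libraries were found. Hoxa7 stood at 0.18 in ER-Hoxb8 MLC replicate 5 (23.9 reads), against -3.62 to -2.34 in the other libraries. Microglia replicates 8 and 9 have library names (YSWT) unlike those of the other microglia (WT). Of these, replicate 8 stood apart for 2 members, with Hoxa7 at 0.65 (24.8 reads, others -3.62 to -1.62) and Meis1 at 1.17 (36.3 reads, others 3.00 to 3.69). Replicate 8 also holds 126 CPM of neuron, 116 CPM of astrocyte and 628 CPM of oligodendrocyte markers, and their part in its values was not tested. The other 3 values rest on about 1 read each, with every other library of the group at a count of 0, so that any read would stand apart. They are Hoxa9 at -2.16 in NTC macrophages at 0.4 uM baricitinib, replicate 4 (0.971 read), Hoxa10 at -3.15 in microglia replicate 5 (0.962 read) and Meis1 at -2.23 in NTC macrophages at 0.016 uM, replicate 4 (1.10 reads).

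NTC macrophage replicate 2 was normalized alone and was left out of the comparisons, except in an alternative that adds it across sets. Its Hoxb8 was -0.91 (8.31 reads) and its Hoxb4 was -0.59 (10.9 reads), and how far it differs from the other NTC macrophages was not tested.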

How the results depend on the processing

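Of 807 alternative values for single members 746 kept their direction and their side of the threshold, 35 reversed, 9 were weaker and 17 stronger. Of 318 alternative counts of called members 289 were unchanged or close, where 2 in place of 3 is close. Most are given below without the share of all genes called under the same alternative. They describe only how calls of members move. The 3 calls between ER-Hoxb8 and BM progenitors became 2 with CPM above 1 in 6 libraries, which drops Hoxa9 from the test, and 5 without the filter, which adds Hoxb8 and Hoxa10. They held under the other alternatives. A replicate block changed the count of called members in 0 of 18 comparisons. The block joins libraries of the same number over all groups of a fit, also where the numbers do not pair them. It therefore does not isolate the pairing of day 0 with day 4 libraries. In the baricitinib libraries replicate numbers do not match the runs of numbers in the library names, so the block does not cover an order by name. Between BM monocytes and progenitors 0 were called with CPM above 1 in 6 libraries, which tests fewer genes, and 1 to 2 with single libraries removed. With library weights 1 was called between ER-Hoxb8 and BMD macrophages (Meis1), along with 958 genes in place of 291. Between MLC types 1 was called with GFPHox libraries only, and 0 to 1 with a library removed. Between ER-Hoxb8 MLCs and ER-Hoxb8 macrophages 1 was called at a log2FC limit of 1 and with WTHox libraries only, and 0 to 1 with a library removed. Against microglia ER-Hoxb8 MLCs gave 2 at a limit of 1 and 2 with WTHox libraries only, and BMD MLCs 0 with log2(CPM + 1) and 0 to 1 with a library removed. Between BMD MLCs and BMD macrophages 0 were called with log2(CPM + 1). In sgRNA 1 lines 0 were called from progenitor to macrophage without the filter, with log2(CPM + 1) and with library weights, and 0 to 1 with a library removed. In sgRNA 2 lines 1 was called at a limit of 1. Between 10 and 0 uM baricitinib in KO-labelled cells 0 were called with log2(CPM + 1) and with only the 2 groups fitted, and 2 at a limit of 1. Over the 5 doses 1 was called at a limit of 1. Adding 1 to CPM shrinks changes of genes this low by construction, and for the other changes the cause was not tested.

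Reversed values were as follows. From day 0 to day 4 Hoxb4 was -0.021 and Hoxa9 -0.0114 after quantile normalization, and single removals took Hoxa7 from -0.43 to 0.0734 and Hoxa9 from -0.11 to 0.13. Between MLC types Hoxb4 was -0.26 with GFPHox libraries only. Between BMD MLCs and BMD macrophages Hoxa7 was 0.054 with log2(CPM + 1), 0.15 with weights and -0.94 to 0.30 with removals, and Meis1 -0.97 to 4.107e-05. Between ER-Hoxb8 MLCs and microglia Hoxa7 was 0.0668 with WTHox libraries only. With removals Hoxb8 ran from -1.59 to 0.15 from NTC progenitors to macrophages. In sgRNA 1 lines Hoxb4 was -0.0502 after quantile normalization, -0.14 with weights and -0.12 to 0.31 with removals over the same step. Between sgRNA 1 and NTC macrophages Hoxb8 was 0.33 with weights and -1.28 to 0.49 with removals, and Hoxb4 0.30 with NTC macrophage replicate 2 added and -0.28 to 0.16 with removals. In sgRNA 2 lines Hoxb4 was -0.43 after quantile normalization and -0.053 to 0.15 with removals. Between KO-labelled and NTC macrophages without drug Hoxb4 was 0.21 after quantile normalization, 0.13 with weights and -0.22 to 0.27 with removals. Where removing a library drops a member below the filter, a fit that kept the tested genes was added after the data were seen. It reversed Hoxb4 from day 0 to day 4 without day 4 replicate 2 (-0.0455) and Hoxa7 between BMD MLCs and microglia without BMD MLC replicate 3 (-0.34). The cause was not tested. Depth limits what a count of 0 means, from 6.18 M reads in a baricitinib library to 51.5 M in a BM progenitor library. The fit of only the 2 groups was not run for sgRNA 2 lines, which already hold 2 groups, or for the mean over doses.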
